A study of Rattus norvegicus with 18 samples.

Results

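m6A peaks on mRNA were compared between H9c2 cells given Shen-yuan-dan (SYD) together with phenylephrine (PE) and H9c2 cells given PE alone. H9c2 is a line from embryonic rat heart, and PE is an agonist of α1-adrenergic receptors that was used here to make the cells hypertrophic. The SYD group received 2 mg/mL SYD, a preparation of traditional Chinese medicine applied as a freeze-dried powder in culture medium, and 50 μM PE for 24 h. The text for the whole series gives 1 mg/mL SYD instead. The Model group received 50 μM PE for 24 h, and an untreated Control group was used only to look up sites. Each group had 3 replicates, and each replicate had an immunoprecipitated (IP) and an input library, so 12 of the 18 sequenced samples and 6 of the 9 peak lists entered the comparison. No source says whether the replicates were separate cultures, so p-values measure the spread between these samples, which may be technical.

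N6-methyladenosine (m6A) is placed on mRNA by a nuclear complex around the methyltransferase METTL3, is removed by ALKBH5 and FTO, and is read by proteins of the YTH and IGF2BP families that affect splicing, translation and decay. In MeRIP-seq, RNA fragments bound by an antibody against m6A are sequenced and set against the input. A peak therefore marks a stretch of transcript, not a single base, and its call depends on how much of the RNA is present as well as on its methylation. The lists give no RNA abundance, and these quantities cannot be told apart.

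The SYD lists held 2508, 2691 and 2786 peaks, against 4476, 2883 and 4187 in the Model lists, in the order of the replicate numbers. To compare lists of 1 length, the 2508 peaks with the highest score were kept from each, where 2508 is the length of the shortest list and the score is 10 times the negative log10 of the peak's p-value. The weakest peak kept had a score of 20.04, 21.51 and 22.62 in the SYD libraries, against 46.87, 24.79 and 40.91 in the Model libraries. The first peak left out had a score of 21.51 and 22.6 in SYD libraries 2 and 3, against 46.86, 24.77 and 40.9 in the Model libraries. Absence from a SYD list thus meant a score close to the lowest score in any deposited list, which was 20, while absence from a Model list of equal length could still leave a weaker peak further down. The median score was 45.3 ± 3.40 in SYD and 87.6 ± 27.6 in Model libraries (SD, n = 3 each). The median fold enrichment of IP over input ran the other way, with 30.9, 22.1 and 31.4 in SYD and 14.0, 10.3 and 13.4 in Model libraries, a ratio of 2.24. In each of these measures the groups did not overlap (p = 0.10 by a two-sided exact permutation test, which with 3 libraries per group cannot give less). Because score and fold differed in scale between the groups, a peak was described by its rank in its own list, with rank 1 for the highest score. At equal length the libraries named similar numbers of genes, 1783, 1799 and 1823 in SYD and 1809, 1804 and 1792 in Model lists. Among the markers of other cells, 1 of 15 genes of endothelial, immune and epithelial cells had a peak (Krt8, in 1 SYD list), and 1 of 13 fibroblast genes did (Col3a1, in 2 SYD lists and 3 Model lists). Of 21 cardiomyocyte genes, 4 had a peak, namely Tnnt2, Atp2a2, Nkx2-5 and Hand2, and the other 17 had none, while 2 of 13 skeletal myoblast genes, Cdh15 and Itga7, had one.

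**Figure D1:**
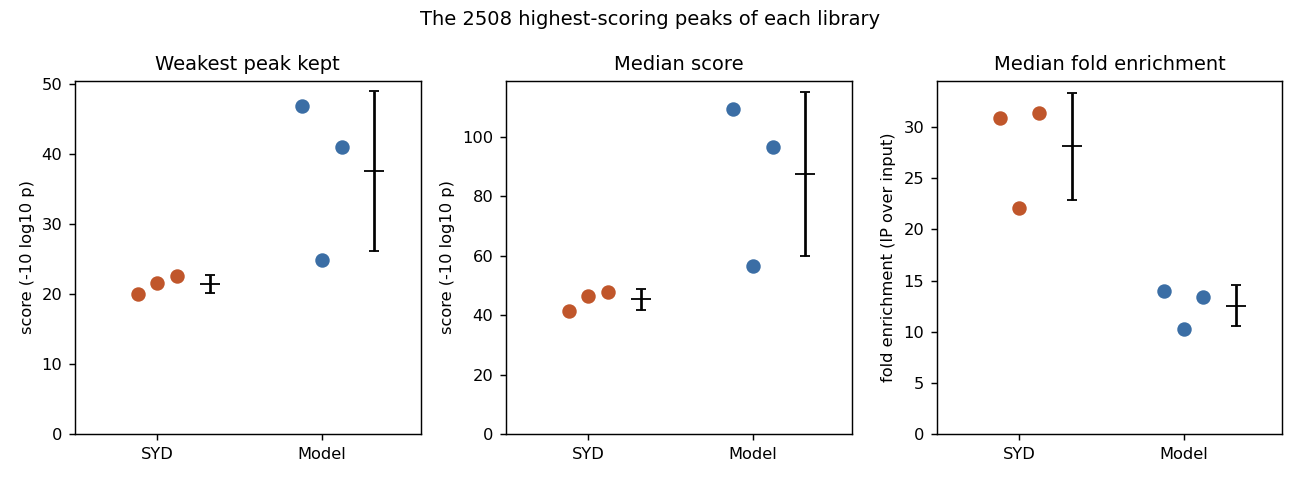
Score of the weakest peak kept, median score and median fold enrichment of the 2508 highest-scoring peaks, 1 point per library, with the mean and SD (n = 3) beside the points. SYD libraries lie below the Model libraries in score (medians of 41.5 to 47.9 against 56.6 to 110) and above them in fold enrichment (22.1 to 31.4 against 10.3 to 14.0).

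Overlapping peaks (1 shared base or more) were joined across the 6 lists, which left 5312 sites in 3262 genes, with 0 sites that held peaks of more than 1 gene. Most sites did not follow the treatment. The 6 lists shared 843 sites (15.9%), while 1058 sites were found in 1 SYD list alone and 927 in 1 Model list alone. Of the 843 shared sites, 94.4% were also in all 3 Control lists. At equal length and in order of score, libraries of the same group were hardly more alike than libraries of different groups. The mean Jaccard index, which is the number of sites that a pair of lists has in common over the number in either, was 0.440 within SYD, 0.462 within Model and 0.441 between SYD and Model. The difference of the index within and between groups was 0.0102 (one-sided exact permutation test of the group labels, p = 0.20, with 0.10 the lowest possible), and without Model replicate 1 it was -0.000149. Other settings gave larger differences, with 0.0198 in order of fold enrichment, 0.0281 in full lists, which are shorter in SYD, and 0.0634 at a score of at least 50. Each of these reached p = 0.10 in the same exact permutation test.

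Sites held by all 3 SYD lists and by no Model list, called SYD-held here, lay in 30 genes. There were 30 such sites, 1.25% of the 2405 sites present in at least 3 of the 6 lists, and 35 sites with the opposite pattern, called Model-held, 1.46% of the same 2405. Of the 30 SYD-held sites, 9 were in a gene of one of the lists described further on, and 21 were in none. The list of TGF-β and BMP signaling had 2 SYD-held and 0 Model-held sites among its 14 sites present in at least 3 lists, and that of extracellular matrix and integrins had 3 and 1 among 55. Other lists had similar counts. Lipid synthesis and PGC-1 metabolism had 1 SYD-held site among 8, and nuclear pore proteins and importins 1 among 9. Hypertrophy and adrenergic signaling had 1 among 15, and no list was tested for held sites. The site with the best position was in Tgfbr2, the type II receptor of TGF-β (chr8:124398520-124399236). It ranked 459, 1209 and 1015 in the SYD lists, with scores of 101, 48.1 and 58.5, and had no peak in any deposited Model list. The next was in Ski, which represses transcription by SMAD proteins downstream of that receptor (chr5:172561573-172561865), with ranks of 859, 1327 and 1346 in SYD lists. A weaker peak of it, with a score of 31.5, stood at rank 3321 of Model list 1. Both genes also had other peaks in Model lists. The Ski gene had a far stronger peak in all 6 lists, with ranks of 135, 142 and 69 in SYD and 77, 57 and 66 in Model lists.

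The 3 matrix genes with a SYD-held site were Col4a1, Col4a2 and Lamc1, which encode chains of type IV collagen and laminin of the basement membrane. The Col4a1 site (chr16:83597385-83597549) ranked 830, 1666 and 1893, and the Col4a2 site (chr16:83438427-83438561) ranked 892, 1992 and 2229 in the SYD lists. The Lamc1 site was weaker, with ranks of 2332, 1562 and 1431. All 3 genes had further peaks in every Model list, so these sites lay within transcripts that carried m6A peaks in both groups. Col5a1, a chain of type V collagen, had a Model-held site that stood higher, with ranks of 601, 1497 and 1562 in Model lists. The site in Fads2, the Δ6 fatty acid desaturase, was of the other kind. Fads2 had ranks of 1048, 1997 and 483 in SYD lists and no peak anywhere in a deposited Model list (chr1:226152196-226152524). The same held for Ipo13, an importer of proteins into the nucleus, with ranks of 1117, 1950 and 1724 in SYD lists, and in all 11 of the 30 genes had no peak in a Model list of equal length.

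Some other SYD-held sites are given together here by the known role of their genes in transcription, a grouping made after the values were seen and not tested. Srf, a factor that drives muscle and cytoskeletal genes, had a SYD-held site with ranks of 867, 2095 and 1199 (chr9:16740342-16740608) beside a stronger site present in every list. Med25, a subunit of the Mediator complex, ranked 1744, 1326 and 1461. Thra, the thyroid hormone receptor α, ranked 1937, 1909 and 2294. Zbtb46, a zinc finger factor, ranked 1884, 1586 and 2300. None of these sites was among the 1000 highest scores of all 3 SYD libraries. Each also had a peak further down a deposited Model list. The Zbtb46 site had scores of 44.36 and 26.59 in Model lists 1 and 3, against 26.95, 36.47 and 24.86 in SYD lists. The Srf site had 43.87 and 29 in Model lists 1 and 3, against 59.24, 26.67 and 49.82 in SYD lists.

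Further SYD-held sites were in genes of various roles. Bag3, a co-chaperone of Hsp70 in the turnover of damaged muscle proteins, ranked 1116, 1627 and 727 (chr1:199958091-199958420). Dusp16, a phosphatase of JNK and p38, ranked 2136, 2259 and 1324, and Hk1, a hexokinase, 1343, 1538 and 2308. Stt3b, which transfers sugar chains to proteins in the endoplasmic reticulum, ranked 1370, 1185 and 2372. Surf4, a cargo receptor of the same compartment, ranked 929, 1113 and 2139. Others were in Arl2bp, Mpnd, Impad1, Npepps, Grasp, Tmem132a, LOC691931, Thop1, Iqce, Numa1, Srsf9 and Micall1, and their weakest ranks ran from 1598 in Arl2bp to 2423 in Micall1. All sites of these genes of various roles but that in Impad1 had a peak further down a deposited Model list. Those in Thop1 and Micall1 had one in all 3. The Micall1 site had scores of 34.44, 23.15 and 39.14 in Model lists, against 22.46, 30.54 and 23.6 in SYD lists.

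Of the 35 Model-held sites, 17 were in a gene of one of the lists and 18 were in none. Autophagy had 2 among its 10 sites present in at least 3 lists, translation initiation and tRNA synthetases 2 among 18, histone and DNA modifiers 2 among 36, and the nucleolus 1 among 14, while chromatin remodelers had 0 among 36. Other lists had similar counts, such as 2 among 14 for ion channels and pumps and 1 among 11 for growth factors and receptor tyrosine kinases. For mTOR signaling it was 1 among 12, for the cell cycle 1 among 16, and for kinesins, dynein and the centrosome 2 among 40. Over all 2405 such sites the share was 1.46%, and no list was tested for held sites. The other Model-held sites are grouped below by the known roles of their genes, after the values were seen and without a test. The leading site was in Fam193a (chr14:81536819-81537049), with close ranks of 877, 823 and 886 in the Model lists, and the gene had no peak in a deposited SYD list. In protein synthesis, Sars, the seryl-tRNA synthetase, ranked 2290, 1452 and 1834 (chr2:211235247-211235467). Lars2, the mitochondrial leucyl-tRNA synthetase, ranked 2115, 1868 and 2199. Eif2s2, the β subunit of initiation factor eIF2, ranked 1992, 1663 and 1179, and all 3 genes had no peak in a SYD list of equal length. Of nucleolar proteins, Fbl, the methyltransferase of ribosomal RNA, had ranks of 1628, 1817 and 2035, Esf1 had 1579, 1530 and 1837, and the helicase Ddx27 had 1572, 1260 and 1422. Ddx42, a helicase of the spliceosome, ranked 1391, 2453 and 1486.

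Phf13 and Zmynd8 were the histone and DNA modifiers with a Model-held site. Phf13, a reader of methylated histone H3, ranked 1559, 876 and 1142 (chr5:169162794-169163614), and Zmynd8, a reader of acetylated histones, 2295, 1166 and 1687. Outside that list, the PHD finger proteins Phf12 and Phf21a had weakest ranks of 2121 and 1904, and Rnf168, which ubiquitinates histones at DNA breaks, ranked 1255, 1858 and 1890. Tlk1, a kinase of histone chaperones, ranked 2390, 1400 and 2178, and the DNA ligase gene Lig1 2497, 1196 and 1116. Phf21a, Rnf168, Tlk1 and Lig1 had no peak in a SYD list of equal length.

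The autophagy gene Sh3glb1, whose product bends membranes as autophagosomes form, ranked 1661, 1468 and 1994 at its Model-held site (chr2:250743812-250744196) and had no peak in any deposited SYD list. Plekhm1, an adaptor for fusion of autophagosomes with lysosomes, ranked 1749, 1798 and 1805 (chr10:91464795-91465715), with another peak of the gene in SYD list 2. Fnip2, a partner of folliculin in amino acid sensing by mTORC1, ranked 1825, 2499 and 2049 and likewise had no SYD peak. Letm1, a protein of ion transport in the inner mitochondrial membrane, ranked 1452, 2296 and 2101. Pcnt and Ccdc112, genes of the centrosome and its satellites, had weakest ranks of 1597 and 1539. Further Model-held sites were in Hdgf, Myh4, Spg20, Stk39, Bmp2k, Ppip5k1, Ptpdc1, Cnst, Lasp1, Tmem2 and LOC100359583.

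**Figure D2:**
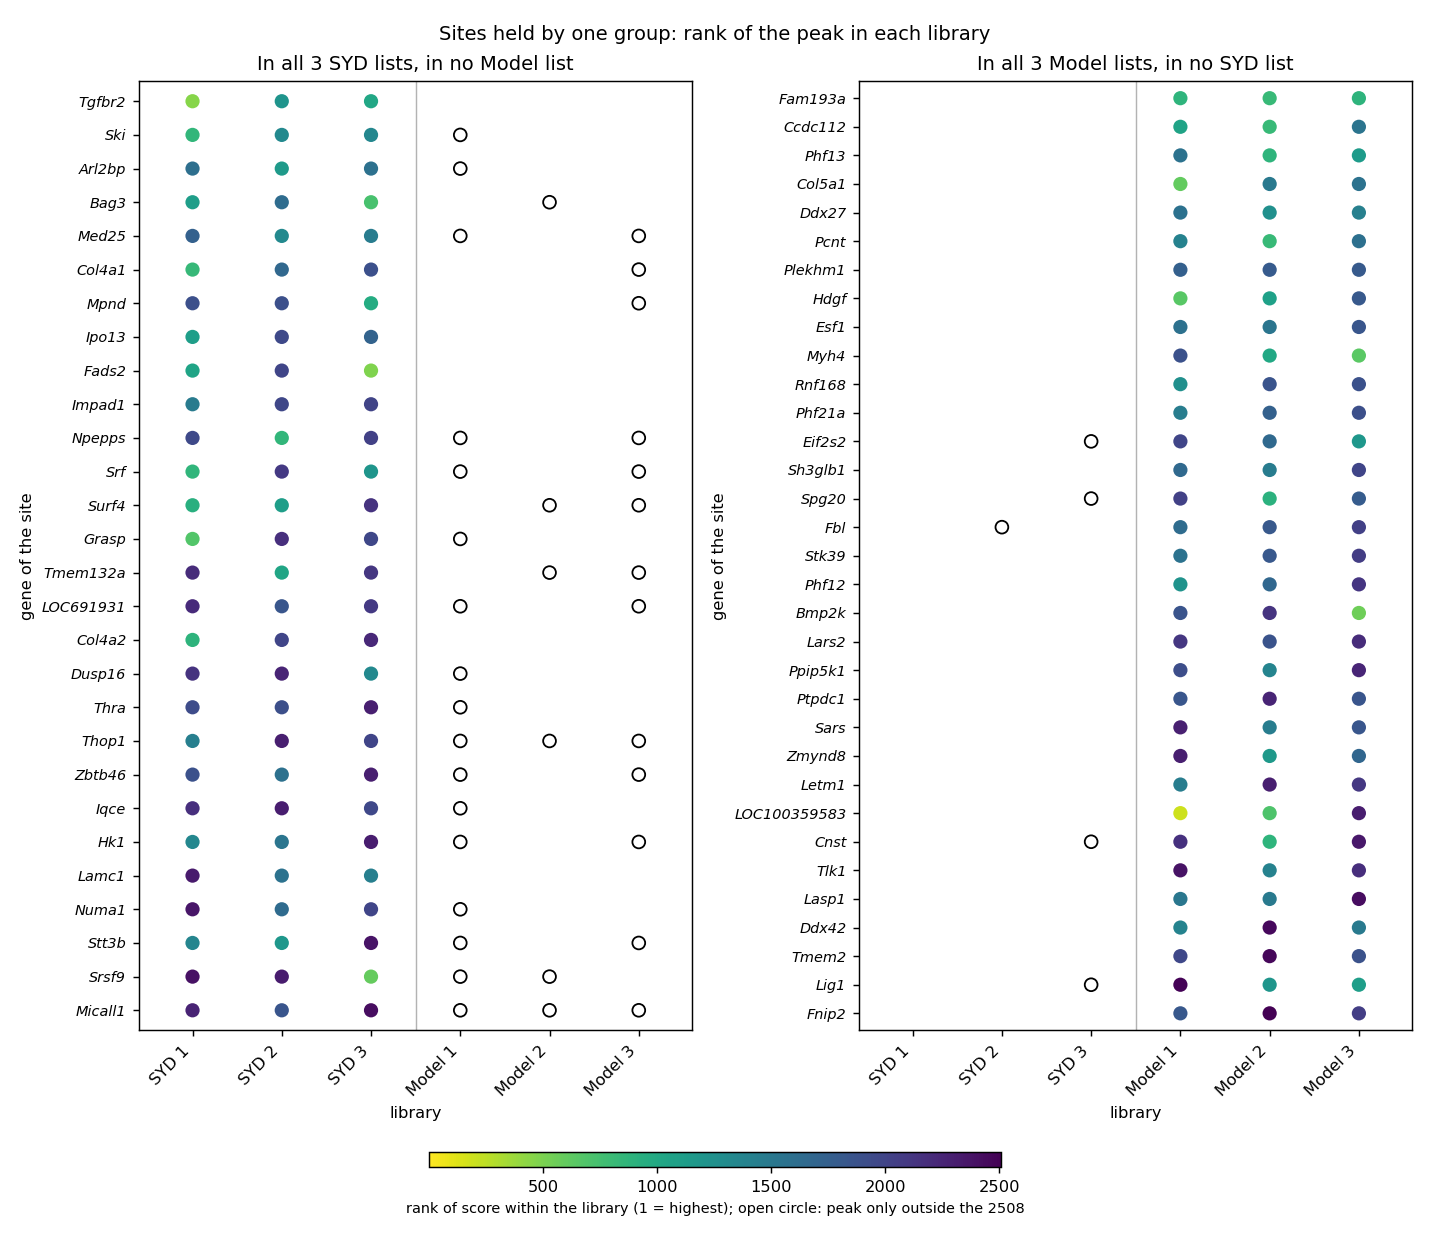
Rank of the peak in each library at 28 of the 30 SYD-held sites (left) and 33 of the 35 Model-held sites (right), ordered by their weakest rank, with color for the rank among the 2508 peaks and an open circle where a list had a peak only beyond these. Most SYD-held sites drawn (22 of 28) had such a weaker peak in a Model list, while 5 of the 33 Model-held sites drawn had one in a SYD list.

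Absence differed in kind between the directions. Of the 30 SYD-held sites, 24 had a peak in at least 1 full Model list, with scores from 20.3 to 44.4 and a median of 29.6. Such a peak was found in 1 full Model list for 11 sites, in 2 for 11 and in all 3 for 2. The 6 without one were in Tgfbr2, Fads2, Ipo13, Impad1, Col4a2 and Lamc1. Of the 35 Model-held sites, 5 had a peak in a full SYD list, and 30 had none, but the SYD lists ended only 0, 183 and 278 peaks later, against 1968, 375 and 1679 more peaks in the Model lists. The strongest position that a SYD-held site kept in all 3 libraries was rank 1209, and that of a Model-held site rank 886, so no site that stood ahead of these ranks in all 3 libraries of one group was missing from the other group. Leaving out any 1 of the 6 libraries gave 56 to 99 SYD-held and 64 to 122 Model-held sites, since fewer lists must then hold or lack a site. With the 1000 highest scores the numbers were 9 and 16, and 0 SYD-held and 3 Model-held genes were shared with those at 2508.

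The Control lists, which were used at full length, held most of the same sites. Of the SYD-held sites, 10 were in all 3 Control lists, 12 in 2, 6 in 1 and 2 in none, the last being those in Ski and Numa1. Of the Model-held sites, 19 were in all 3 Control lists, 11 in 2, 4 in 1 and 1 in none, which was in LOC100359583. Presence in all 3 Control lists was thus found for 33.3% of SYD-held and 54.3% of Model-held sites, against 70.9% of all 2405 sites present in at least 3 of the 6 lists. The 2405 sites include the 843 sites in all 6 lists, of which 94.4% were in all 3 Control lists. They are thus not a like set for sites held by 1 group. The site in Tgfbr2 had scores of 30.4, 113 and 94.6 in the Control lists, and that in Fam193a 74.2, 63.2 and 129.

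Genes instead of sites gave a similar count. In all 3 lists of one group and none of the other there were 18 SYD-held genes (0.98% of 1837 genes in at least 3 lists) and 21 Model-held genes (1.14%), while 781 genes had a peak in all 6 lists. Where transcripts carried many peaks, the number of peaks per gene was compared. Of 236 genes with at least 12 peaks summed over the 6 lists, 1 had more peaks in every SYD than in every Model list (0.424%) and 5 had fewer (2.12%). The gene with more was Bag3, with 3, 3 and 3 peaks in SYD against 1, 1 and 2 in Model lists. Its outer sites had ranks of 656, 916 and 1406 and of 1466, 697 and 1041 in SYD lists, and each was also present in 2 Model lists.

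Among the genes with fewer peaks in SYD lists were Myh4, Ddx27, Lasp1 and Ap3d1. Myh4, a myosin heavy chain of fast skeletal muscle, had 4, 3 and 5 peaks in SYD against 6, 9 and 8 in Model lists. Of its 10 sites, 5 were in no SYD list and 3 were in all 6 lists, and the Model-held one (chr10:53735041-53735166) ranked 1887, 1001 and 639. Myosin heavy chain genes are close copies of each other, and reads can be shared among them, so the assignment to Myh4 is uncertain. Ddx27, a helicase of ribosome biogenesis, had 1, 1 and 0 peaks in SYD against 4, 5 and 3 in Model lists, and 4 of its 6 sites were in no SYD list. Lasp1, an actin-binding protein, had 2, 1 and 1 peaks in SYD against 3, 3 and 3 in Model lists. The adaptor complex gene Ap3d1 had 2, 1 and 2 in SYD against 3, 3 and 3 in Model lists.

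**Figure D3:**
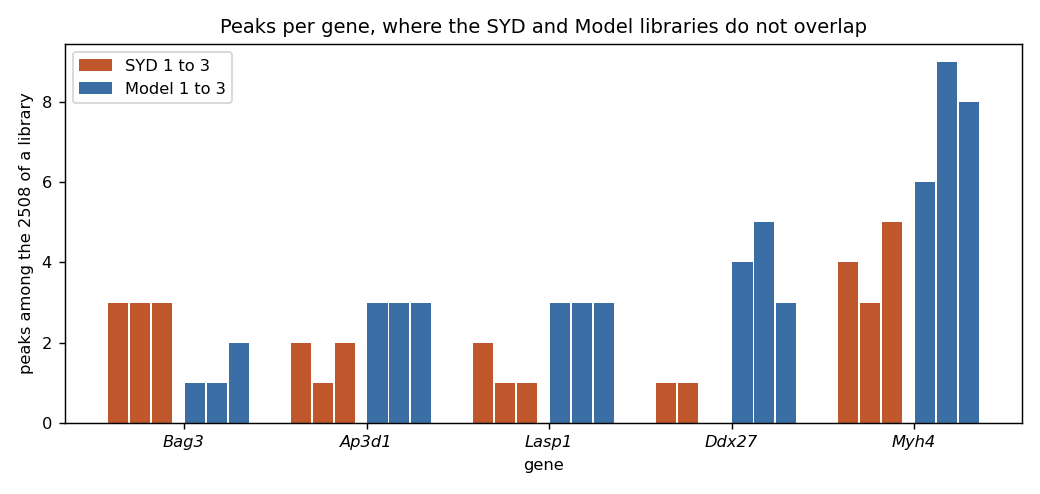
Number of peaks per gene among the 2508 of each library, 1 bar per library, for 5 of the 6 genes whose SYD and Model libraries did not overlap. Bag3 had 3 peaks in each SYD library against 1 or 2 in Model libraries, and Myh4 had 3 to 5 in SYD against 6 to 9 in Model libraries.

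At the 843 sites present in all 6 lists, the strength of a site was compared by its rank. Ranks were turned into normal scores, with a positive value for a higher peak score, and fitted with limma. At an adjusted p under 0.05, 0 sites were stronger (0% of 843) and 0 weaker (0%) in SYD. At an unadjusted p under 0.05, 54 sites (6.41%) differed, 22 of them stronger and 32 weaker in SYD, and the lowest adjusted p was 0.678. Simulated data gave every site the same SD, which the real sites need not have, and shifted a part of the sites. In the simulated data the fit recovered a share of 0.397 of shifts of 1 normal score unit and 0.062 of shifts of 0.5. Differences of that size would thus mostly be missed, and 0 calls do not show that ranks were unchanged. Sites at which all SYD ranks were ahead of all Model ranks numbered 41 (4.86%), and those at which all were behind numbered 62 (7.35%).

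The sites with the smallest p values did not pass the adjusted threshold, and their values are given as a description. The first was in Lasp1 (chr10:85779398-85779554), with ranks of 613, 450 and 705 in SYD against 1591, 2111 and 1537 in Model lists. Its difference was 1.27 ± 0.26 normal score units (SE, limma, adjusted p = 0.678). The same transcript carried a Model-held site at chr10:85752102-85752196, so its sites differed in opposite directions. Kctd17, an adaptor of a ubiquitin ligase, ranked 328, 373 and 798 in SYD against 1739, 1676 and 1183 in Model lists. Enah, which extends actin filaments, ranked 1222, 1137 and 1260 against 2200, 1814 and 2454. The cAMP phosphodiesterase Pde3b ranked 500, 774 and 1329 against 2405, 2338 and 1577. The other sites with stronger ranks in SYD were in Abr, Sh3rf3, Tmpo, Ube2h, Lmod1 and the tyrosine kinase gene Abl1, and their differences ran from 0.76 to 1.53.

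Weaker ranks in SYD were led by Casc3, a core protein of the exon junction complex (chr10:86724427-86724761), with 2275, 1903 and 2303 in SYD against 1283, 1234 and 808 in Model lists. Its difference was -1.29 ± 0.27 (SE, limma, adjusted p = 0.678). Ppp3ca, the catalytic subunit of calcineurin, which transmits calcium signals in hypertrophy, ranked 1313, 1743 and 1749 in SYD against 944, 615 and 884 in Model lists. Dnmt1, the maintenance DNA methyltransferase, appeared with both of its sites that were in all 6 lists. One (chr8:21945333-21945411) ranked 2075, 1723 and 2322 in SYD against 1510, 1026 and 602 in Model lists, and the other 1109, 1427 and 1076 against 639, 641 and 469. A site of Myh4 ranked 1020, 1122 and 1154 in SYD against 613, 428 and 338 in Model lists. Eif4g1, the scaffold of cap-dependent translation, ranked 754, 1354 and 828 against 296, 528 and 270. The remaining ones were in Hmgn5b, Fndc3b, Etnk1 and Anp32b. Hmgn5b and Anp32b belong to families of similar genes, so reads may be shared there too.

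**Figure D4:**
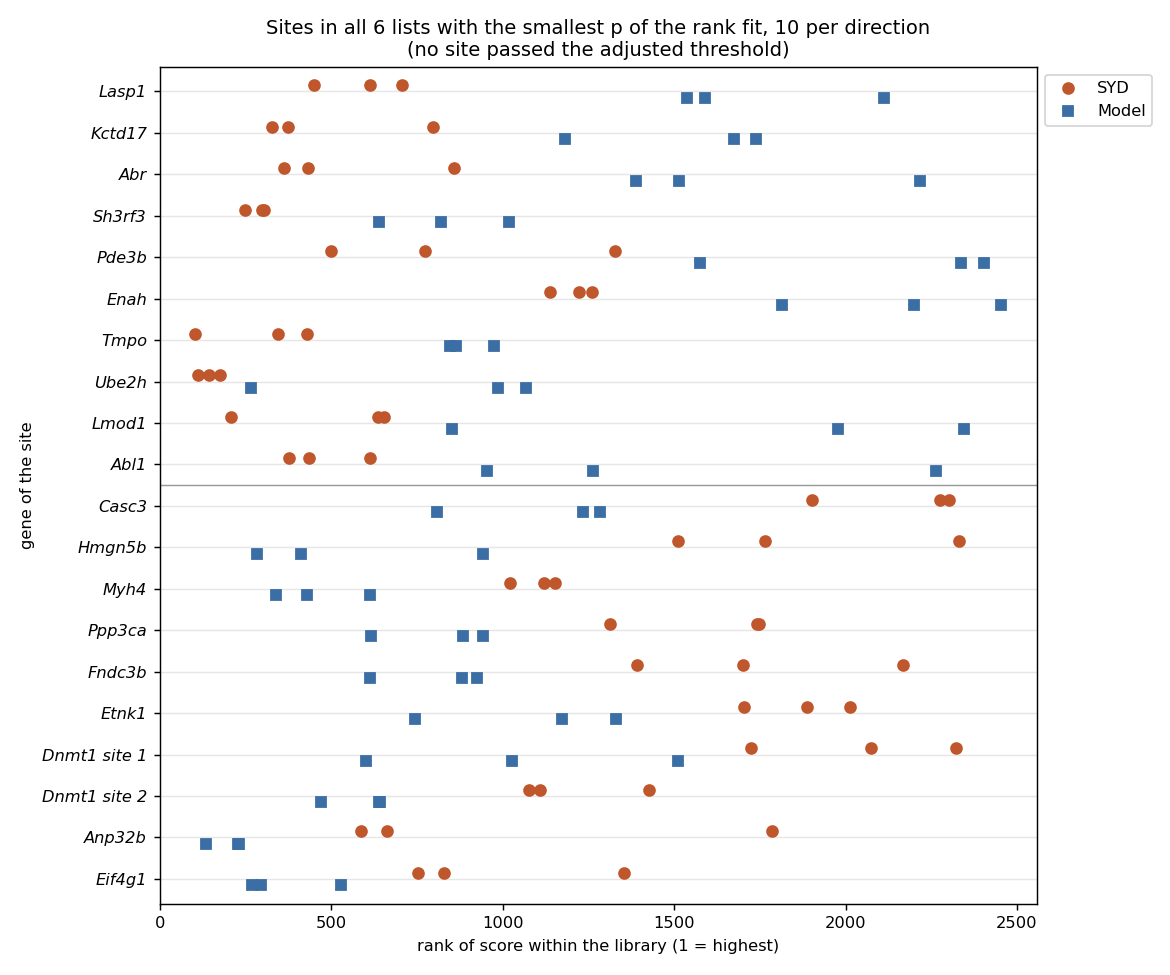
Rank of the score within each library at the 10 sites with the smallest p in each direction, with circles for SYD and squares for Model libraries (rank 1 is the highest score). The groups do not overlap at any of the 20 sites, but the lowest adjusted p over the 843 sites was 0.678.

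For each gene group, the members with a peak were counted in each list. Over all 3262 genes the lists were balanced, with 1015 genes in more SYD than Model lists, 1007 in more Model than SYD lists and 1240 in as many. Presence of a gene in a list refers here to the lists of equal length unless full lists are named. The 34 gene lists held 1473 symbols, of which 556 had a peak. In 5 of the 34 (14.7%), the counts of the SYD and Model libraries did not overlap, each with the smallest p that the exact permutation test allows (p = 0.10, adjusted p = 0.68 over the 34 lists), so none passed the threshold. Of these 5, 1 had higher and 4 had lower counts in SYD. In the full lists, which are shorter in SYD, 8 of the 34 did not overlap, and of these 0 were higher and 8 lower in SYD.

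Growth factors and receptor tyrosine kinases had 10, 13 and 11 genes with a peak in SYD against 5, 6 and 8 in Model lists. Of the 14 genes with any peak, 11 were in more SYD than Model lists, 0 in more Model lists and 3 in as many, where all genes split almost evenly. Insr, the insulin receptor, ranked 749 and 2346 in SYD lists 1 and 2 and was in no Model list of equal length. Igf1r, the receptor of insulin-like growth factor 1, ranked 2066 and 1091 in SYD lists 2 and 3, and Erbb2 ranked 1716 and 2111 in SYD lists 1 and 2, with neither in a Model list of equal length. Epha2, an ephrin receptor, ranked 2051 and 1903 in SYD lists 2 and 3 and was likewise in none. Further down the deposited Model lists, Insr stood at rank 2560 of list 3, and Igf1r at rank 4041 and Epha2 at rank 3671 of list 1, while Erbb2 had no peak. In the full lists the mean number of genes was 11.7 in SYD and 9.67 in Model lists, and the groups overlapped (exact permutation test, p = 0.60). Gas6, Efnb2 and Hdgf had a peak in every list. Vegfa and the docking protein gene Gab1 were in 3 SYD and 2 Model lists, and where both groups called them the ranks were not better in SYD, with 916, 1919 and 628 for Vegfa in SYD against 324 and 299 in Model lists. Among the 1000 highest scores the mean difference of this list was -0.333 genes, in the opposite direction, while among the 1500 highest it was 2 genes.

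Histone and DNA modifiers had 18, 17 and 21 genes with a peak in SYD against 26, 25 and 22 in Model lists. Of the 30 genes with a peak, 0 were in more SYD lists, 13 were in more Model lists and 17 were in as many. The demethylases Kdm2b and Kdm4a and the polycomb-related gene Asxl1 were each in 2 Model lists and in no SYD list. Kdm4a ranked 1541 and 1727 in Model lists 2 and 3, and Asxl1 2124 and 2462 in the same lists. The acetyltransferases Ep300 and Crebbp and the methyltransferases Kmt2b and Kmt2d were in every list at high ranks, such as 56, 222 and 81 in SYD and 68, 146 and 98 in Model lists for Crebbp. The difference of the means was -5.67 genes at 2508 peaks but -1.33 with the 1500 and -1 with the 1000 highest scores, where the groups overlapped (exact permutation test, p = 0.60 and p = 0.70).

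Genes of translation initiation and tRNA synthetases numbered 8, 9 and 9 in SYD against 12, 11 and 11 in Model lists, a difference that rests on Sars, Lars2 and genes found in a single list, while Eif3a, Eif3b, Eif4g1 and Eif4g3 had a peak in every list. With the 1500 highest scores the mean difference of this list was 0.333 genes, in the opposite direction. Genes of the nucleolus and ribosome biogenesis numbered 11, 10 and 8 in SYD against 15, 14 and 12 in Model lists. With the 1500 and the 1000 highest scores the mean difference of this list was -3 and -3.33 genes. The groups did not overlap there either (exact permutation test, p = 0.10 each). Besides Fbl, Rrp1 was in 1 SYD and 3 Model lists, with a rank of 1846 in SYD list 1 against 2105, 1123 and 1593 in Model lists. Rexo4 was likewise in 1 SYD and 3 Model lists, with a rank of 2377 against 2281, 1406 and 1681. Genes of kinesins, dynein and the centrosome numbered 18, 19 and 16 in SYD against 23, 21 and 21 in Model lists, and of the 33 with a peak, 5 were in more SYD lists and 15 in more Model lists. Kif21a, a kinesin, was in 2 Model lists with ranks of 2175 and 2233 and in no SYD list, while Kif13b was in 2 SYD lists with ranks of 2172 and 2263 and in no Model list.

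**Figure D5:**
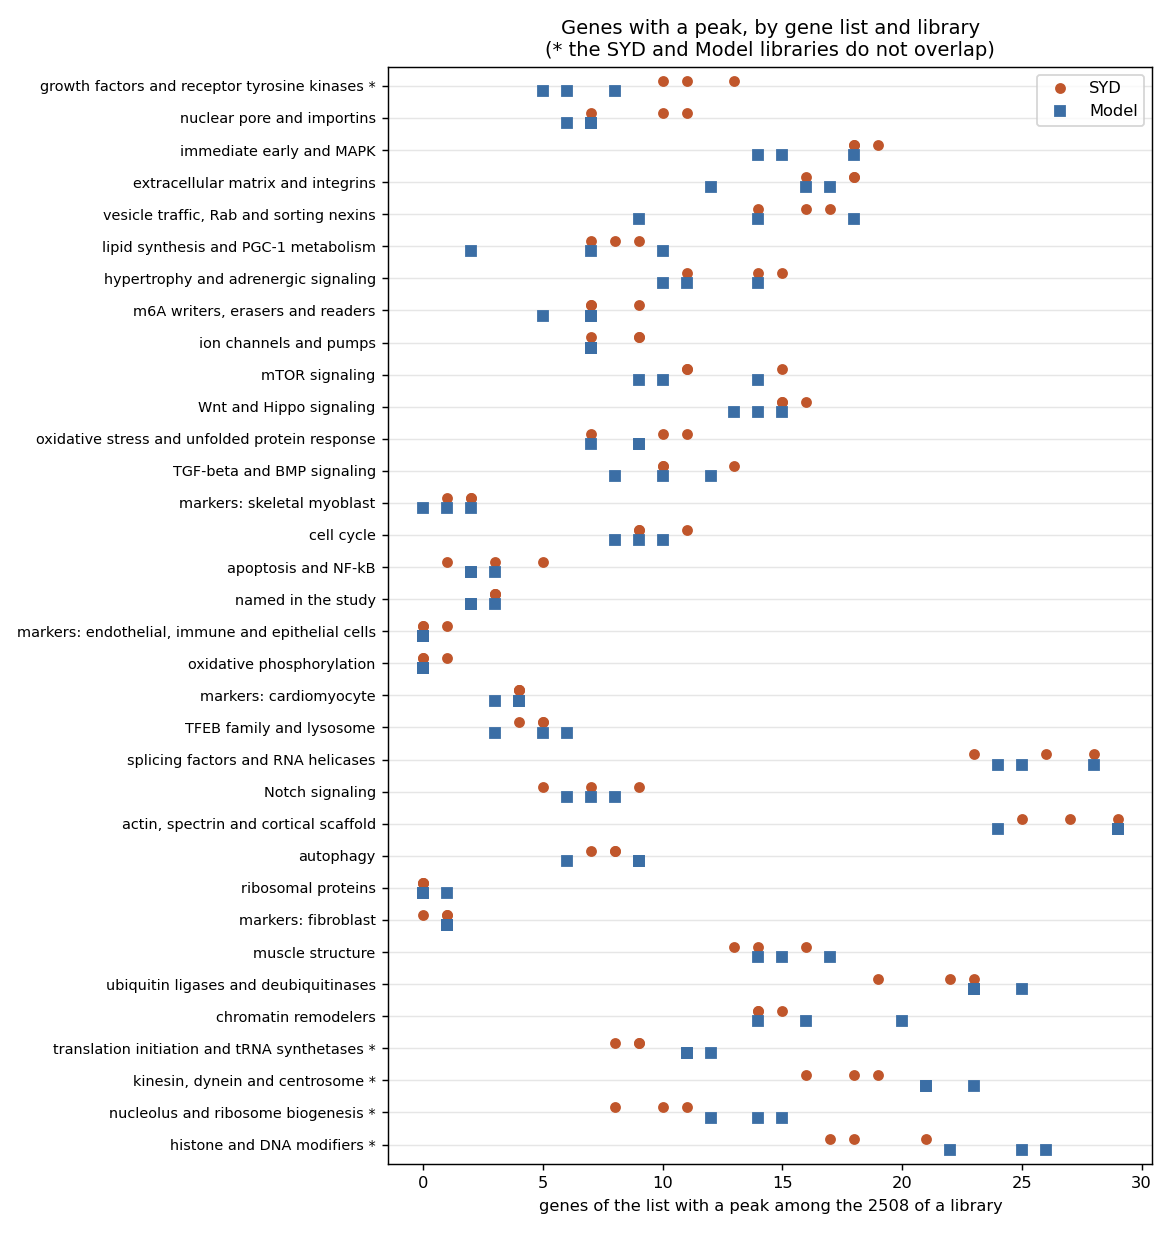
Number of genes with a peak among the 2508 of each library for the 34 gene lists, with circles for SYD and squares for Model libraries, ordered by the difference of the means. An asterisk marks the 5 lists whose libraries did not overlap, from growth factors and receptor tyrosine kinases (10 to 13 in SYD against 5 to 8 in Model) to histone and DNA modifiers (17 to 21 against 22 to 26).

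The lists closest to the question of the study overlapped between the groups. Autophagy genes with a peak numbered 7, 8 and 8 in SYD against 9, 6 and 9 in Model lists (exact permutation test, p = 1). Genes of mTOR signaling numbered 11, 11 and 15 against 10, 9 and 14 (same exact test, p = 0.50), and the TFEB family with lysosomal genes 4, 5 and 5 against 3, 5 and 6. Within autophagy, 5 genes were in more SYD and 5 in more Model lists. Wdfy3, a scaffold for the clearance of protein aggregates, was in 3 SYD lists with ranks of 1435, 1337 and 1710 against 1 Model list with rank 2432, and Pik3r4, a subunit of the VPS34 lipid kinase complex, was in 2 SYD lists and no Model list. Rptor, the substrate-binding partner of mTOR in mTORC1, ranked 2118, 2355 and 1656 in SYD lists against 1745 in Model list 3 alone. Rragd, a GTPase that recruits mTORC1 to lysosomes, was in 2 Model lists, at ranks of 2412 and 2310, and in no SYD list.

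Of the m6A machinery, 9, 7 and 7 genes had a peak in SYD against 7, 5 and 7 in Model lists (exact permutation test, p = 0.60). The eraser Alkbh5 was in every list, with ranks of 578, 1734 and 1123 in SYD against 632, 333 and 304 in Model lists, ranges that overlap. The reader Ythdc1 ranked 2401, 1221 and 1851 in SYD against 1091, 602 and 1124 in Model lists, and here every SYD rank was behind every Model rank. These are the best ranks of the gene, which had 2 peaks in Model list 1. The same order was found at 62 of the 843 shared sites (7.35%). Zc3h13, which anchors the methyltransferase complex in the nucleus, had strong peaks in both groups, with ranks of 41, 74 and 64 in SYD and 41, 39 and 57 in Model lists.

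Genes of hypertrophy and adrenergic signaling numbered 15, 11 and 14 in SYD against 10, 14 and 11 in Model lists (exact permutation test, p = 0.50). Gnaq and Gna11, which couple α1-adrenergic receptors to phospholipase C, had peaks in every list, with ranks of 132, 136 and 292 in SYD against 225, 62 and 131 in Model lists for Gnaq. Of the 20 genes with a peak, 8 were in more SYD lists, 6 in more Model lists and 6 in as many. The calcineurin target gene Nfatc4 ranked 1802 and 1871 in SYD lists 1 and 3, and the deacetylase gene Hdac7 1195 and 1885 in the same lists, with neither in a Model list. Myocd, a coactivator of Srf, was in 3 SYD lists with ranks of 1649, 2502 and 1058 and in Model list 1 at rank 2098. The cardiac factor gene Gata6 and the anchoring protein gene Akap13 were each in 2 SYD and 3 Model lists. Gata6 ranked 835 and 1286 in SYD lists 2 and 3 against 2090, 1983 and 1264 in Model lists, so its ranks were mostly better in SYD. Akap13 ranked 843 and 1824 in SYD lists 1 and 3 against 1844, 469 and 739 in Model lists. Genes of the extracellular matrix and integrins numbered 16, 18 and 18 in SYD against 12, 17 and 16 in Model lists, and those of TGF-β and BMP signaling 10, 10 and 13 against 12, 10 and 8 (exact permutation test, p = 0.30 and p = 0.70). The receptor-regulated SMAD gene Smad3 was in 2 SYD lists, at ranks of 2138 and 2322, and in no Model list.

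The genes that the study followed were mostly without a peak. Mettl3, Sqstm1, Map1lc3a, Becn1, Nppa, Nppb and Myh7 had none in the deposited lists of any group, where Nppa, Nppb and Myh7 are markers of hypertrophy. Mtor had a peak in all 3 SYD lists and in 1 Model list at equal length, but at 4 different sites. Site chr5:165267354-165267529 ranked 2132 in SYD list 3 and 2194 in Model list 3, and no other Mtor site was within the 2508 in more than 1 list. Site chr5:165353076-165353324, at rank 1661 of SYD list 1 with a score of 30.38, also had a peak further down in Model list 3. That peak had a score of 30.95 and rank 3116. Tfeb had 1 peak within the lists of equal length, at rank 2130 of Model list 2 (chr9:15214029-15214283). A peak with a score of 37.2 lay further down in Model list 1, and one with a score of 20.3, at a neighboring site, in SYD list 2. Tgfb1 had its main site (chr1:82480195-82481374) in 3 SYD lists, with ranks of 1439, 1808 and 843, and in Model lists 1 and 3, with ranks of 936 and 1330. Map1lc3b, the LC3B gene whose lipidated product marks autophagosomes, was the only one of these with a site in all 6 lists (chr19:53635475-53635614). It ranked 584, 989 and 1973 in SYD against 263, 374 and 524 in Model lists. Every SYD rank was behind every Model rank, an order found at 62 of the 843 shared sites (7.35%). The difference of the Map1lc3b site in the fit was -0.97 normal score units and did not pass the adjusted threshold (limma, adjusted p = 0.755).

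At the 843 shared sites the scale of the deposited values itself differed. The fold enrichment of all SYD libraries exceeded that of all Model libraries at 656 sites (77.8%) and was below it at 0, with a median difference of 1.12 on the log2 scale. The median fold per library was 39.2, 27.2 and 42.2 in SYD against 18.7, 13.0 and 17.8 in Model libraries. The score of all SYD libraries was below that of all Model libraries at 380 sites (45.1%) and above it at 0, with medians of 86.1, 98.9 and 109 in SYD against 238, 147 and 219 in Model libraries. At the Myh9 site (chr7:118747825-118748073), where every library had a score of 3100, the fold was 47.6, 22.6 and 35.96 in SYD against 18.5, 10.9 and 18.6 in Model libraries. What moved fold and score in opposite directions was not tested.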

How the data were processed

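The data are MeRIP-seq peak lists of H9c2 cells. Per the submitters' notes and methods, the authors used cutadapt 1.9.3 for trimming and HISAT2 2.0.4 for alignment to rn6, the rat genome. Each replicate's peaks were called by MACS against that replicate's input, and those on mRNA were kept by programs of their own. The deposited score is 10 times the negative log10 p of a peak, the deposited fold enrichment is a ratio of IP over input scaled within a replicate, and the deposited FDR, 100 percent for every peak, was not used. Peak length is the authors' end minus start. Read numbers are not in the lists, so depth is unknown and no counting error is given.

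Here the 2508 highest-scoring peaks of each list were merged into sites by an overlap of at least 1 base. Of 3327 sites in at least 2 lists, 2706 (81.3%) had the same start and end in every list that held them. Lengths ran from 13 to 8894 bases. Rank is the number of higher scores in a list plus 1. Positions are 1-based on rn6; transcript regions and sequences of the sites were not analysed here. Sites and genes were compared by presence, and values per library by a two-sided exact permutation test. Ranks at 843 sites were fitted with limma 3.58.1 in R 4.3.3 on normal scores, with Benjamini-Hochberg adjustment, and checked on simulated data. With a simulated SD of 0.492 within groups, the same for every site, the shares recovered were 0.062, 0.397 and 0.982 for shifts of 0.5, 1 and 2 units. These shares may not hold where the SD differs between sites. Lists of genes were counted with Benjamini-Hochberg adjustment over the 34 lists. The members, gene lists and tests were chosen with earlier results of these data known. Named genes are the 15 held sites per direction with the best weakest rank, the 10 sites per direction with the smallest p, list members with such a site, and the genes the study followed. All other named genes were chosen after their values were seen. Among the sites with the best mean rank, 9 reached a score of 3100 in all 6 lists, and of these Myh9 is described. Some held sites and genes that enter the counts are not reported here by name or drawn. Alternatives were full lists, the 1500 or 1000 highest scores, a score of at least 50, order by fold, an overlap of 50%, sites merged over 9 lists, at least 2 of 3 lists, other scales of the fit, a replicate block and leaving out each library. Absence also from the full lists of the other group, gene lists without each library and gene lists at 1500 and 1000 peaks were chosen after the data had been seen. The versions were Python 3.11.15, numpy 2.4.6, pandas 2.3.3 and matplotlib 3.10.9.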

Additional observations from a re-analysis of the deposited data

How the results depend on the processing

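The number of held sites depended on list length and on the order of peaks. SYD-held and Model-held sites numbered 30 and 35 at 2508 peaks, 9 and 149 in full lists, 15 and 25 with the 1500 highest scores, 9 and 16 with the 1000 highest, 2 and 114 at a score of at least 50, 54 and 62 when ordered by fold enrichment, and 232 and 254 when at least 2 of 3 lists were required. Absence also from the full lists of the other group left 6 and 30. Without 1 library each they were 56 to 99 and 64 to 122. An overlap of 50% and merging over 9 lists gave the same 30 and 35. Of the genes with a SYD-held site, 6 were also held in full lists, 3 at 1500 peaks, 0 at 1000 peaks and 18 when ordered by fold. Of those with a Model-held site, 30, 1, 3 and 20 were.

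SYD-held and Model-held genes numbered 18 and 21, 7 and 94 in full lists, 11 and 18 at 1500 peaks, 9 and 11 at 1000 peaks, 1 and 79 at a score of at least 50, and 28 and 41 when ordered by fold. Without 1 library each they were 33 to 61 and 34 to 68. The difference of the Jaccard index ran from -0.000149 to 0.0172 without 1 library. It was 0.0281 in full lists, 0.0634 at a score of at least 50 and 0.0198 when ordered by fold. With the 1500 and the 1000 highest scores it was 0.0103 and 0.00715. The difference of median peak length ran from -13.2 to 15 bases, that of median fold from 13.9 to 18.6 and that of the lowest score kept from -22.5 to -11.5. The number of gene lists whose libraries did not overlap was 5 at 2508 peaks (1 higher and 4 lower in SYD), 8 in full lists (0 higher and 8 lower) and 6 to 8 without 1 library, where 8 was reached without SYD replicate 1 and without Model replicate 3. The list of growth factors and receptor tyrosine kinases had a difference of 5 genes at 2508 peaks, 2 in full lists and -0.333 at 1000 peaks, histone and DNA modifiers -5.67 at 2508 and -1 at 1000 peaks, and translation initiation and tRNA synthetases 0.333 genes at 1500 peaks. Nucleolus and ribosome biogenesis kept its direction, with -4 at 2508 peaks, -5.33 in full lists, -3 at 1500 and -3.33 at 1000 peaks. Kinesins, dynein and the centrosome had -4, -9.67, -3.33 and -4 in the same order. By rank of fold enrichment the Fndc3b site differed by 0.16, against -1.04 by rank of score. The cause of these changes was not tested.

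The rank fit called 0 sites in both directions under all 11 alternatives, with 38 to 68 sites at an unadjusted p under 0.05 and a lowest adjusted p between 0.0957 and 0.738. By rank, the replicate numbers did not pair the libraries, with correlations of -0.05, 0.05 and -0.03 between same-numbered libraries. Ranks within a list cannot show a shift of a whole library, so shared handling by replicate number remains unknown. The median fold enrichment was lowest in replicate 2 of both groups, with 22.1 in SYD and 10.3 in Model. With the replicate block, 0 sites were stronger and 0 weaker in SYD (64 at an unadjusted p under 0.05).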

Other observations

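Values of some further gene groups are given as a description. In the list of lipid synthesis and PGC-1 metabolism, 6 genes were in more SYD and 7 in more Model lists. Of its 17 genes with a peak, 4 were in at least 2 SYD lists and in no Model list, against 0 in the opposite pattern. Over all 3262 genes these numbers were 134 and 138. The 4 genes were the desaturase genes Fads2 and Fads3, Nr1h2, the nuclear receptor LXRβ, and Pgs1, an enzyme of cardiolipin synthesis. For Fads3, Nr1h2 and Pgs1, peaks further down the deposited Model lists are not given here. Fads3 ranked 1752 and 173 in SYD lists 1 and 3, and Nr1h2 1510 and 911 in SYD lists 1 and 2. The counts of the whole list were 7, 8 and 9 in SYD against 2, 7 and 10 in Model lists, which overlap, and the means in full lists were 8.33 in SYD and 9.67 in Model lists. For nuclear pore proteins and importins the counts were 7, 10 and 11 in SYD against 7, 6 and 7 in Model lists, with Ipo13 and the exportin gene Xpo6 in at least 2 SYD lists and no Model list, but the means in full lists were 9.33 in SYD and 9 in Model lists.

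Among other single genes, Tpm1, which encodes α-tropomyosin, was in 1 SYD list at rank 1522 and in 3 Model lists at ranks of 378, 1097 and 735. Myh8, the perinatal myosin heavy chain gene, was in 2 Model lists at ranks of 1728 and 2300 and in no SYD list, and shares sequence with Myh4. Hells, a chromatin remodeler that aids DNA methylation, was in 2 Model lists at ranks of 1621 and 1760 and in no SYD list. Keap1, the inhibitor of the oxidative stress factor NRF2, was in 3 SYD lists at ranks of 1183, 2508 and 1515 and in Model list 2 at rank 513. Over all genes, 134 were in at least 2 SYD and no Model lists and 138 in the opposite pattern, so such genes were about as common in both directions.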
